A study of Mus musculus with 5 samples.

Results

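De novo lipogenesis turns acetyl-CoA in the cytosol into fatty acids. The 10 mouse genes described here include the transcription factor genes Srebf1 and Mlxipl, and the gene Thrsp. The others are the enzymes Acly, Acss2, Acaca, Acacb, Fasn and Me1, and the citrate carrier Slc25a1. All 10 were found on the array through the RefSeq accession of each probe. This gave 17 probes for the 10 genes, out of 19752 genes that could be named. Livers of Fra-1hep mice on the C57BL/6J background, a line in which hepatocytes overexpress the AP-1 subunit Fra-1, were compared with livers of C57BL/6J wild-type controls. The construct that drives Fra-1 and the sex of the animals are not given in the sources used here. Mice of both groups were 26 to 28 weeks old and had been fed a high-fat diet, with 45% of its energy as fat, from week 4 of age. Each of 4 arrays set Cy5-labelled RNA of 1 Fra-1hep mouse against Cy3-labelled RNA pooled from 5 controls. The fifth array carried pooled Fra-1hep RNA, labelled with Cy3, and the control pool, labelled with Cy5. No source used here names the mice behind the Fra-1hep pool, and that array was not counted as a further animal. The fit still takes the error of that array as independent of the 4 mice. This could not be checked, and the standard errors and p-values rest on it.

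As background, the liver makes fatty acids from sugar and, to a lesser extent, from acetate. Citrate leaves the mitochondrion through the carrier Slc25a1 and is split by ATP citrate lyase (Acly) into acetyl-CoA, which acetyl-CoA synthetase Acss2 can also make from acetate. Acetyl-CoA carboxylases 1 and 2 (Acaca, Acacb) form malonyl-CoA, which fatty acid synthase (Fasn) extends to palmitate with NADPH that comes in part from cytosolic malic enzyme (Me1). Insulin acts on these genes largely through SREBP-1c, a product of Srebf1, and glucose through ChREBP, the product of Mlxipl, while Thrsp (Spot 14) is a small nuclear and cytosolic protein induced with them by thyroid hormone and carbohydrate. In bulk liver RNA, fewer cells of a type cannot be told apart from less RNA per cell.

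All 17 probes exceeded background clearly on every array, in the Fra-1hep as in the control channel. Of all spots, 47.2% to 54.7% did so in Cy5 and 47.7% to 61.5% in Cy3, and the array of mouse 1 held the highest share in each dye. That array was also alone on its slide, while the other 4 arrays shared a slide, so slide and mouse 1 cannot be told apart. The single probe for Fosl1, the gene of Fra-1, cleared background on 0 arrays for Fra-1hep and on 1 for control, and its log2 ratios ran from -0.37 to 0.12, so it does not serve as a check of the labels. Where in the transcript this probe lies relative to the overexpressed sequence was not analysed here.

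RefSeq promoter windows were found for all 10 genes, at 14 annotated starts (build GRCm38.p6, 300 bases each, 250 before and 50 after the start). They were searched on both strands for TGANTCA, the element bound by AP-1 dimers, for the E-box CACGTG, which ChREBP and USF proteins use, for CCAAT, the box of NF-Y, a partner of SREBPs, and for TCACNCC, a core of the sterol response element. CCAAT or its complement lay in 10 of 14 windows, of 9 genes, and in 37.4% of all 32851 windows. TGANTCA lay in 1 of 14 windows, that of the upstream Me1 start, and in 7.81% of all windows. CACGTG lay in 2 of 14 windows, at Slc25a1 and at the upstream Mlxipl start, and in 7.15% of all windows. TCACNCC lay in 1 window, at the downstream Mlxipl start, and in 15.6% of all windows. The windows below belong to Mlxipl, the steadiest rise, Thrsp, the largest rise that passed, Fasn and Me1. Fasn is the synthase itself, and Me1 is the one gene lower on 4 of 5 arrays. Each line gives 250 bases before the start and the first 10 after it, 5′ to 3′ along the gene, with every match to one of these motifs, on either strand, in capitals. In Fasn, CCAAT and ATTGG overlap in one run, and in Me1 the match begins at base -6 and runs across the start. A match describes the letters in a window and says nothing of binding.
Mlxipl upstream start, chr5:135089640-135089899, plus strand: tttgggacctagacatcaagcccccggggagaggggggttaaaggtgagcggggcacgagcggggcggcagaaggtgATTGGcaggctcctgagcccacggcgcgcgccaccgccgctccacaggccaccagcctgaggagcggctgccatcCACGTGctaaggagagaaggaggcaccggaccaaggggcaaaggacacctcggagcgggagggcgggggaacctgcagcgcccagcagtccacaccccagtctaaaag
Thrsp, chr7:97417541-97417800, minus strand: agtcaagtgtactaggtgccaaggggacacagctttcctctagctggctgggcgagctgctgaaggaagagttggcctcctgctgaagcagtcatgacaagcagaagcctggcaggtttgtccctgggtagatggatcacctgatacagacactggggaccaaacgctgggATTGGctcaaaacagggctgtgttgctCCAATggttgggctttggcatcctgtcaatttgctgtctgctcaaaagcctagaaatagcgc
Fasn, chr11:120824538-120824797, minus strand: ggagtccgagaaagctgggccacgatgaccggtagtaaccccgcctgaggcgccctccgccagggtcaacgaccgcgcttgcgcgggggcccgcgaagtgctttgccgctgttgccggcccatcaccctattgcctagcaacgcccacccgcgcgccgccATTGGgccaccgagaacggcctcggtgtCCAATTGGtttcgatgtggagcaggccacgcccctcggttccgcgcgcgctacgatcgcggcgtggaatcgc
Me1 upstream start, chr9:86695905-86696164, minus strand: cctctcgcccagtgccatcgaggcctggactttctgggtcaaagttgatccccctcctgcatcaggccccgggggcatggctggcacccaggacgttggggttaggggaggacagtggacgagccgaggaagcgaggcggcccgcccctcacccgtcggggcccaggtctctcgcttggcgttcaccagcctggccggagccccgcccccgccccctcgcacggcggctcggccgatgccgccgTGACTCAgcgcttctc

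Of the 10 genes, 4 rose in Fra-1hep liver, 0 fell and 6 did not pass the test, with limma's moderated test adjusted by Benjamini-Hochberg over all 21526 features at 0.05. Over all features 11.2% were called higher and 15.4% lower. The genes that rose were the transcription factor genes Mlxipl and Srebf1, with Thrsp and the citrate carrier Slc25a1. None of the 6 enzymes passed at its brightest probe. The median log2 change of the 10 genes was 0.48, against -0.0034 over all features. Changes are log2 of Fra-1hep over control, with the standard error of the fit over 4 mice and the swapped pool.

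**Figure D1:**
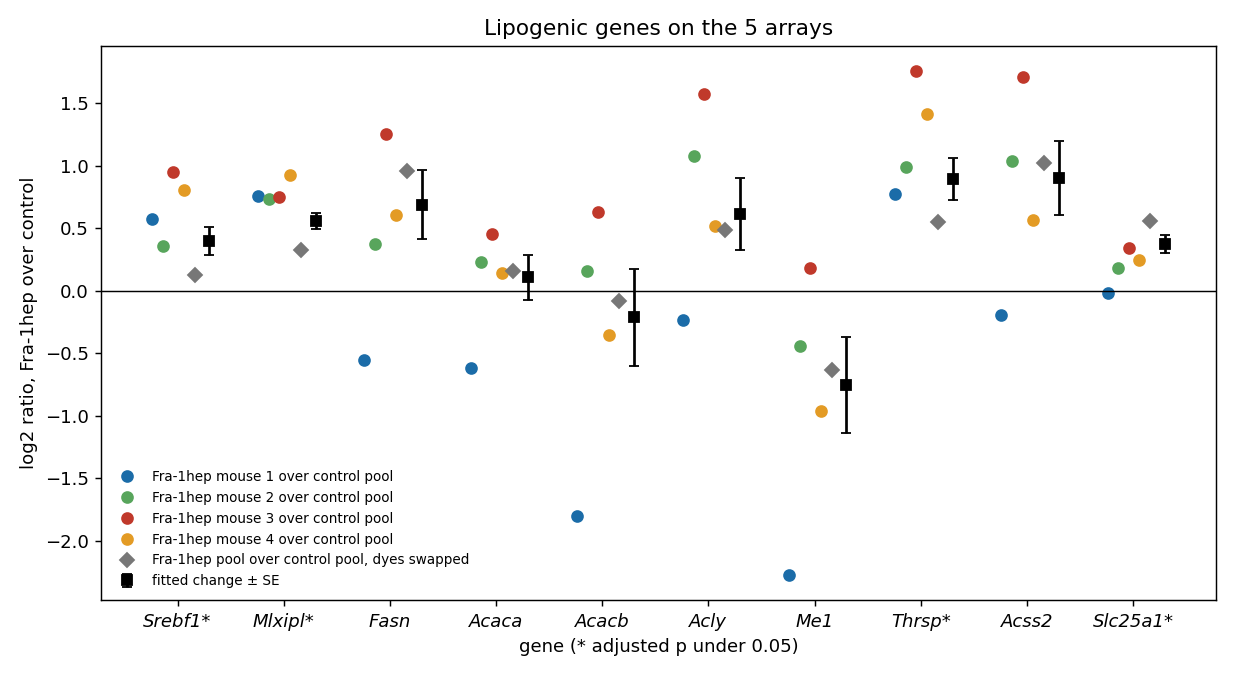
Log2 ratio of Fra-1hep over control (vertical axis) for the 10 lipogenic genes (horizontal axis), with a circle for each of 4 Fra-1hep mice, a diamond for the dye-swapped pool, and a square with bars for the fitted change ± SE. Mlxipl lies in a tight group above 0, from 0.33 to 0.93, while Me1 runs from -2.27 to 0.18 and Acacb from -1.80 to 0.63.

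Mlxipl, which encodes the carbohydrate-responsive factor ChREBP, was higher in Fra-1hep liver on every array. Its log2 ratios were 0.76, 0.73, 0.75 and 0.93 in mice 1 to 4 and 0.33 for the swapped pool. Its normalized log2 levels were 14.43, 14.43, 14.40 and 14.63 in the mice and 14.31 in the Fra-1hep pool, against 13.68, 13.70, 13.65, 13.70 and 13.98 for the control pool on the same arrays. The groups did not overlap, and the mice lay closer together than for any of the other 9 genes. The fitted change was 0.56 ± 0.06, a 1.47-fold rise (limma adjusted p = 0.00124). It passed under all 16 alternative settings. Whether the probe tells the alpha and beta forms of ChREBP apart was not analysed. The beta form starts, in mouse and human, at an upstream promoter that ChREBP itself activates.

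Thrsp, the Spot 14 gene, had the largest change among the genes that rose. Its log2 ratios were 0.78, 0.99, 1.76 and 1.42 in mice 1 to 4 and 0.55 for the swapped pool. Its normalized log2 levels were 16.15, 16.40, 16.87 and 16.67 in the mice and 16.46 in the Fra-1hep pool, against 15.37, 15.41, 15.11, 15.25 and 15.91 for control. Every Fra-1hep level lay above every control level, with mouse 3 highest. The fitted rise was 0.89 ± 0.17, or 1.86-fold (limma adjusted p = 0.00988). It did not pass a test for a change beyond 1.2-fold (adjusted p = 0.0672, against 0.00126 to 0.0672 over the 16 alternatives). Mlxipl and Thrsp were the 2 of 10 genes whose 5 Fra-1hep levels all lay above the 5 control levels, as did 5.45% of all features.

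Srebf1 encodes SREBP-1a and SREBP-1c, and whether its probe separates them was not analysed. Its log2 ratios were 0.58, 0.36, 0.95 and 0.81 in mice 1 to 4 and 0.12 for the swapped pool. Its normalized log2 levels were 11.92, 11.65, 12.33 and 12.12 in the mice and 11.87 in the Fra-1hep pool, against 11.35, 11.29, 11.38, 11.32 and 11.75 for control. Fra-1hep was higher on each array, but the groups overlapped, because the control pool read in Cy5 on the swapped array lay above mouse 2. The rise of 0.40 ± 0.11, or 1.32-fold, passed narrowly (limma adjusted p = 0.0350). It was lost under 6 of 16 alternatives, among them without mouse 4 (adjusted p = 0.0733) and with a spread for the control pool added (0.106), over a range of 0.00244 to 0.931.

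**Figure D2:**
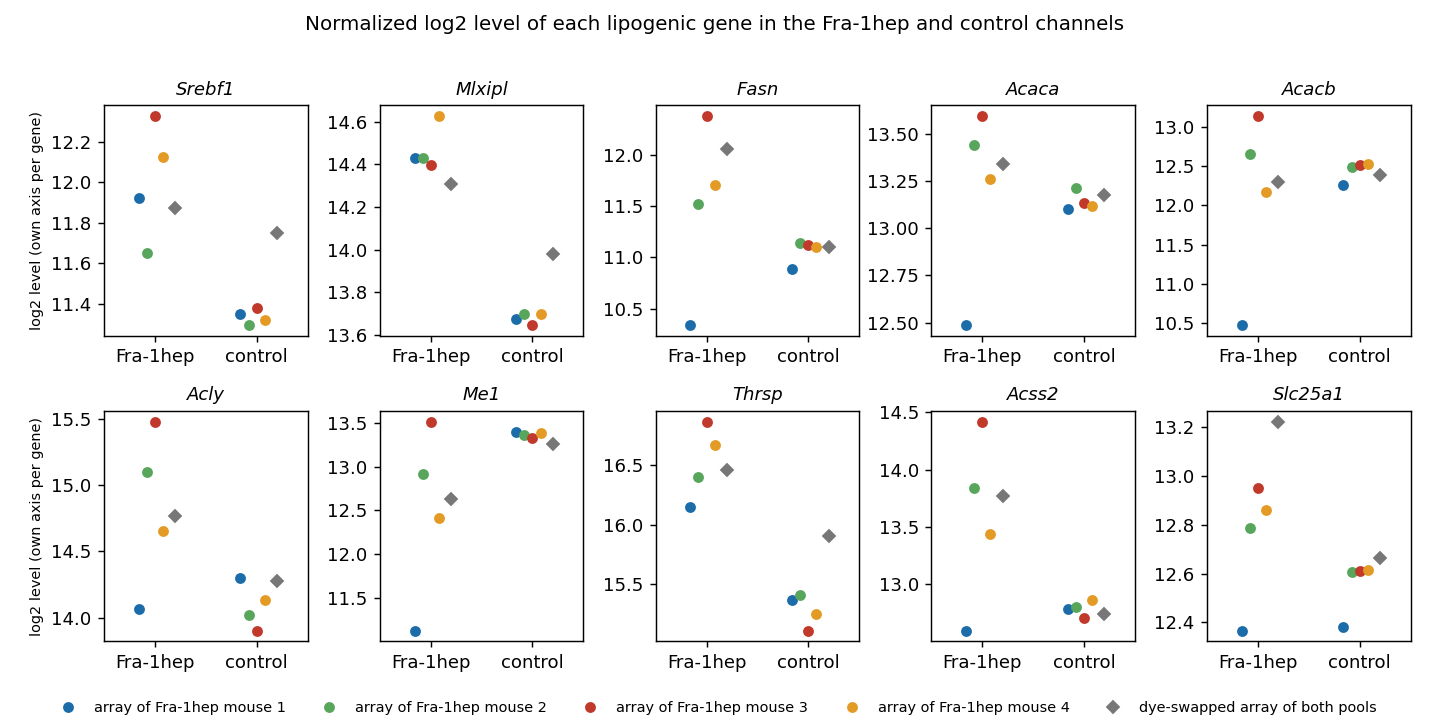
Normalized log2 level of each gene's brightest probe (vertical axes, 1 scale per gene) in the Fra-1hep channel on the left and the control channel on the right of each panel, with circles for the arrays of mice 1 to 4 and a diamond for the dye-swapped array. The Fra-1hep points of Mlxipl and Thrsp all lie above the control points, and in the other 8 panels the groups overlap, with mouse 1 far below the control points for Me1 (11.13) and Acacb (10.47).

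Slc25a1, which carries citrate out of the mitochondrion, was the fourth gene that rose. Its log2 ratios were -0.02, 0.18, 0.34 and 0.25 in mice 1 to 4 and 0.56 for the swapped pool. Mouse 1 was level with the control pool, the other 3 mice were slightly higher, and the pooled comparison was the highest of the 5. The change was 0.37 ± 0.07, or 1.30-fold (limma adjusted p = 0.0123), on levels of 12.37 to 13.22 in Fra-1hep and 12.38 to 12.66 in control, which overlapped. Since the swapped array weighs as much as the 4 mice together in the fit, the change without it was 0.19 (adjusted p = 0.0662, within 0.00641 to 0.734 over 16 alternatives).

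The enzymes that make cytosolic acetyl-CoA had larger but uneven changes. Acss2, which activates acetate, had log2 ratios of -0.19, 1.04, 1.71 and 0.57 in mice 1 to 4 and 1.03 for the swapped pool. Its levels were 12.59, 13.84, 14.42 and 13.44 in the mice and 13.77 in the Fra-1hep pool, against 12.79, 12.80, 12.71, 12.86 and 12.74 for control. Mice 2 to 4 and the pool lay above all control levels and mouse 1 below them. The change of 0.90 ± 0.30, the largest of the 10 genes, did not pass (limma adjusted p = 0.0633). A dimmer Acss2 probe gave 0.96 with an adjusted p of 0.0308 over the kept probes, so the 2 probes of this gene differ in call and not in direction.

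Acly, which splits citrate, followed the same order of mice. Its log2 ratios were -0.23, 1.08, 1.58 and 0.52 in mice 1 to 4 and 0.49 for the swapped pool, with a change of 0.61 ± 0.29 that did not pass (limma adjusted p = 0.160). Its levels ran from 14.07 to 15.48 in Fra-1hep and from 13.90 to 14.30 in control, and overlapped only through mouse 1. The dimmer of its 2 probes gave 0.47 (adjusted p = 0.128 over the kept probes).

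Fasn, the synthase itself, had log2 ratios of -0.55, 0.38, 1.26 and 0.60 in mice 1 to 4 and 0.96 for the swapped pool. Its levels were 10.34, 11.52, 12.38 and 11.71 in the mice and 12.06 in the Fra-1hep pool, against 10.89, 11.14, 11.13, 11.10 and 11.10 for control. Mouse 1 fell below the control range, and the other 4 Fra-1hep levels lay above it. The change of 0.69 ± 0.28 did not pass (limma adjusted p = 0.110).

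The carboxylases had changes closer to 0. Acaca had log2 ratios of -0.61, 0.23, 0.46 and 0.14 in mice 1 to 4 and 0.16 for the swapped pool, with a change of 0.11 ± 0.18 (limma adjusted p = 0.693). Its 3 probes differ in call: a dim one gave ratios from 0.19 to 0.58 in the mice and a change of 0.33 with an adjusted p of 0.0259 over the kept probes, with non-overlapping levels of 7.55 to 8.01 in Fra-1hep and 7.36 to 7.48 in control. The other dim probe gave 0.15 (adjusted p = 0.368). Acacb, the carboxylase at the mitochondrial outer membrane whose malonyl-CoA restrains fatty acid oxidation, had ratios of -1.80, 0.16, 0.63 and -0.35 in mice 1 to 4 and -0.08 for the swapped pool. Its change of -0.21 ± 0.39 did not pass (limma adjusted p = 0.725), and its second probe gave -0.01. With mice on either side of the control pool, the error of Acacb spans changes in both directions.

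Me1, the NADPH-forming malic enzyme, was the gene with the lowest ratios. They were -2.27, -0.44, 0.18 and -0.96 in mice 1 to 4 and -0.63 for the swapped pool. Its levels were 11.13, 12.92, 13.51 and 12.42 in the mice and 12.63 in the Fra-1hep pool, against 13.40, 13.36, 13.33, 13.38 and 13.26 for control. Mouse 3 was the one Fra-1hep sample above the control levels, and mouse 1 was the lowest. The change of -0.75 ± 0.39 did not pass (limma adjusted p = 0.192), and the other 2 probes gave -0.61 and -0.87 (adjusted p = 0.341 and 0.113 over the kept probes).

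The genes differed in how far the Fra-1hep mice lay apart. The SD of the 4 mouse log2 ratios was 1.05 for Acacb, 1.05 for Me1, 0.80 for Acss2, 0.78 for Acly, 0.75 for Fasn, 0.46 for Acaca and 0.44 for Thrsp, all above the 95th percentile of named genes (0.328), where the median was 0.118. That was 7 of 10 genes, against 5% of named genes by construction. Srebf1 (SD 0.26), Slc25a1 (0.15) and Mlxipl (0.09) were below it, at the 90.8th, 66.7th and 34.0th percentile. Without mouse 1, the SD over mice 2 to 4 was still at the 98.4th percentile or above for Fasn, Acacb, Acly, Me1 and Acss2 and at the 97.3rd for Thrsp, but at the 76.2nd for Acaca.

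The spread lay mainly in the Fra-1hep channel. On each mouse array the control channel read the same pool, always in Cy3. It gives the error of the measurement in that dye, while the Fra-1hep channel was read in Cy5. For Me1 the SD of the level over the 4 mouse arrays was 1.02 in the Fra-1hep channel and 0.0298 in the control channel. For Fasn it was 0.85 in the Fra-1hep channel and 0.118 in the control channel, and for Acss2 0.767 in the Fra-1hep channel and 0.0636 in the control channel. The control SD was largest for Acly (0.169, against 0.607 in the Fra-1hep channel) and Thrsp (0.135, against 0.315). Each of the 10 genes had the larger SD in the Fra-1hep channel, and the share of all named genes that did so is not given here. The medians over named genes were 0.144 in the Fra-1hep channel and 0.0956 in the control channel. The spread among control mice is not seen in a pool, so it was not tested whether control livers vary as widely.

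**Figure D3:**
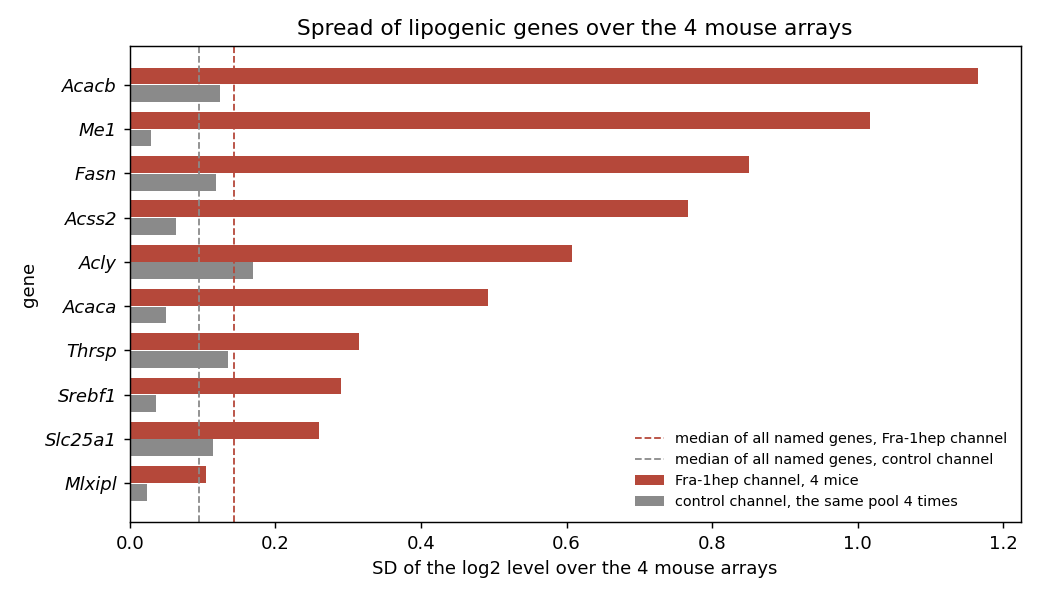
SD of the normalized log2 level over the 4 mouse arrays (horizontal axis) for each gene, with the Fra-1hep channel, 4 different mice, as the upper bar and the control channel, the same pool 4 times, as the lower bar. Dashed lines mark the medians of all named genes, 0.144 for Fra-1hep and 0.0956 for control, and the Fra-1hep bars of Acacb, Me1, Fasn, Acss2 and Acly stand furthest from them.

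The mice kept nearly the same order from gene to gene. Mouse 1 had the lowest ratio in 8 of 10 genes and mouse 3 the highest in 9. Both held for 8 genes, all but Srebf1 and Mlxipl, against 9.29% of 13520 named genes, and these 8 share the same RNA samples and are not independent of each other. The median log2 ratio of the 10 genes was -0.21, 0.37, 0.85 and 0.55 in mice 1 to 4 and 0.41 for the swapped pool, while the median over all features lay between -0.018 and 0.0064 on each array. In mouse 3 all 10 genes were above 0, and in mouse 1 only Srebf1, Mlxipl and Thrsp were.

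The number of genes that passed moved under several settings and was highest without mouse 1, which had the lowest ratio in 8 of 10 genes. That mouse may still be part of the Fra-1hep pool on the swapped array. Without the array of mouse 1, the test with 3 mice and the swapped pool, all on 1 slide, called 7 of 10 genes higher and 0 lower. Of all features, 10.8% were then called higher. The 7 were the same 4 genes and Fasn, Acly and Acss2. Fasn then had a change of 0.85 ± 0.16 (limma adjusted p = 0.0144, against 0.0144 to 0.730 over 16 alternatives). Acss2 had 1.07 ± 0.20 (adjusted p = 0.0137, against 0.0137 to 0.374) and Acly 0.77 ± 0.18 (adjusted p = 0.0286, against 0.0286 to 1.00). Me1 had -0.52 ± 0.20 without that mouse (adjusted p = 0.105), and Acacb turned to 0.031. On the array of mouse 1 the control level was the lowest of the 5 arrays for Fasn (10.89, against 11.10 to 11.14 on the other 4), Acacb (12.27, against 12.39 to 12.53), Slc25a1 (12.38, against 12.61 to 12.66) and Acaca (13.10, against 13.12 to 13.21). It was the highest for Me1 (13.40, against 13.26 to 13.38) and Acly (14.30, against 13.90 to 14.28). The part of that array in the results was not tested.

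By the 5 log2 ratios, the genes outside the set nearest to Fasn were Mvd, Pmvk, Fdps, Dhcr7 and Fgf21, at Euclidean distances of 0.512, 0.827, 0.836, 0.867 and 0.871. Mvd, Pmvk, Fdps and Dhcr7 encode enzymes of sterol synthesis, and Fgf21 a hormone secreted by the liver. Mvd had log2 ratios of -0.13, 0.64, 1.15 and 0.59 in mice 1 to 4 and 1.05 for the swapped pool. All 5 had mouse 1 lowest and mouse 3 highest among the mice, as the choice by likeness to Fasn favours. Within the set, Acss2 (0.883) and Acly (0.961) were nearest to Fasn and Me1 (3.13) was furthest.

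**Figure D4:**
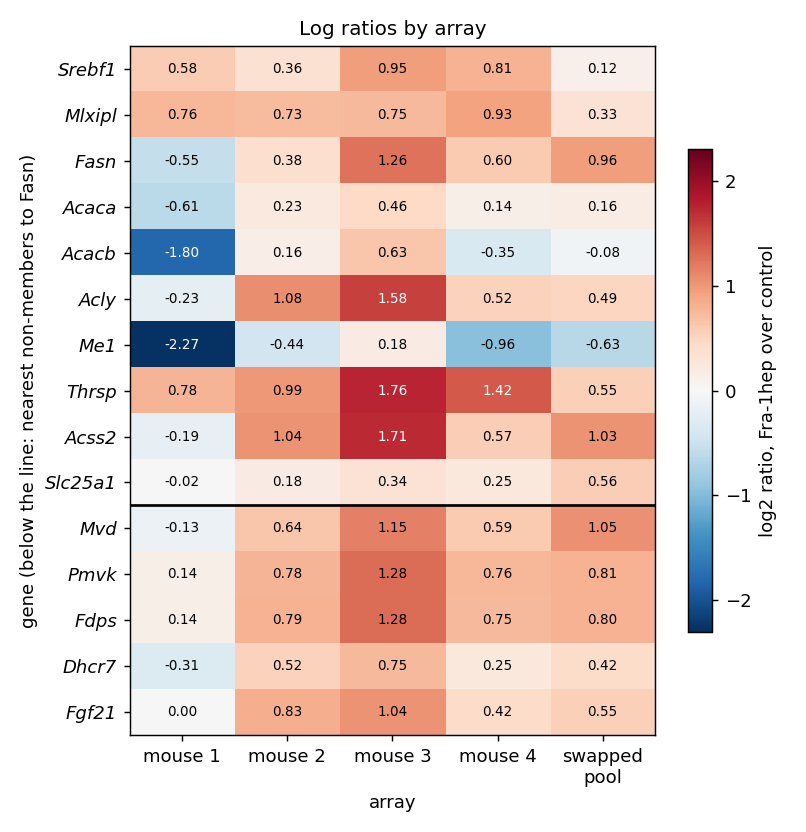
Log2 ratio of Fra-1hep over control (colour and printed value) by array (columns) for the 10 lipogenic genes above the line and the 5 genes nearest to Fasn below it. The column of mouse 1 is blue or pale for most genes and that of mouse 3 is the reddest, while Mlxipl keeps 0.73 to 0.93 in all 4 mice.

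Around the set, 111 of 114 listed genes of 7 neighbouring pathways were tested, of which 14 rose, 23 fell and 74 did not pass, with a median change of -0.07. Over all features 11.2% were higher and 15.4% lower, so the counts of most of these lists lie near the background. A test for changes beyond 1.2-fold called 3 of the 111 higher and 6 lower. Of 12 genes that process or induce SREBPs, 2 rose, 1 fell and 9 did not pass (median -0.03). Insig2, which holds the SREBP escort Scap in the endoplasmic reticulum, fell by 1.56 on the log2 scale (SE 0.10, limma adjusted p = 0.000124), with ratios of -1.53, -1.11, -1.49 and -1.62 in mice 1 to 4 and -1.68 for the swapped pool. All 5 arrays were low, with mouse 2 the least so. Its relative Insig1, an SREBP target, had a change of 0.05 ± 0.25 (adjusted p = 0.910), with -0.86 in mouse 1 and 0.73 in mouse 3. Srebf2, which encodes the sterol-pathway factor SREBP-2, rose by 0.37 ± 0.05 (adjusted p = 0.00409), but with the mean of all its probes the change was 0.16 (adjusted p = 0.116, within 0.00105 to 0.449 over 16 alternatives). Mbtps1, a protease that releases SREBPs, rose by 0.22 ± 0.07 (adjusted p = 0.0455), and this call was lost under 12 of 16 alternatives (adjusted p = 0.0395 to 1.00). Scap itself had -0.17 ± 0.09 (adjusted p = 0.179), and passed as lower under 1 alternative, without the swapped array (-0.27, adjusted p = 0.0332).

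Of 14 genes for ChREBP partners, sugar entry and glycolysis, 5 rose, 2 fell and 7 did not pass (median 0.05). Slc2a5, the fructose transporter, rose by 1.99 ± 0.12 (limma adjusted p = 9.49e-05), with ratios of 2.20, 1.95, 1.56 and 2.15 in mice 1 to 4 and 2.02 for the swapped pool. It was the largest rise in any of the 7 lists, and here mouse 3 was the lowest of the mice. Pfkl, liver phosphofructokinase, rose by 0.61 ± 0.06 (adjusted p = 0.00101). Pklr, liver pyruvate kinase and a classical ChREBP target, rose by 0.36 ± 0.07 (adjusted p = 0.0125), but not with processed signals (adjusted p = 0.0618, within 0.00491 to 0.8288 over 16 alternatives). Gckr rose by 0.40 ± 0.06 (adjusted p = 0.00522), with -0.01 to 0.22 in the mice and 0.66 for the swapped pool. Without that pool it was 0.13 (adjusted p = 0.110) and without the dye term 0.24 (adjusted p = 0.0898, within 0.00370 to 0.359 over 16 alternatives). Mlxip, which encodes the ChREBP relative MondoA, fell by 0.47 on the log2 scale (SE 0.05, adjusted p = 0.00142), and by 0.27 with the mean of its probes or 0.80 with processed signals. Mlx, the dimer partner of ChREBP, had -0.17 ± 0.07 (adjusted p = 0.0990).

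Of 23 genes that supply NADPH and citrate, 1 rose, 8 fell and 14 did not pass (median -0.14). Among those that fell were Mpc1, a subunit of the mitochondrial pyruvate carrier (-0.49 ± 0.06, limma adjusted p = 0.00247), Cs, citrate synthase (-0.43 ± 0.06, adjusted p = 0.00419) and Pdha1, a pyruvate dehydrogenase subunit (-0.34 ± 0.06, adjusted p = 0.00707). Pgls, of the pentose phosphate pathway, rose by 0.45 ± 0.05 (adjusted p = 0.00170), although the mice gave only 0.08 to 0.18 and the swapped pool 0.78. Without that pool the change was 0.12 (adjusted p = 0.0824) and without the dye term 0.25 (adjusted p = 0.103, within 0.00101 to 0.103 over 16 alternatives), so the call ended. The fall of Mpc1 was 0.26 without that pool and still passed (adjusted p = 0.0121). The NADPH-forming G6pdx had -0.23 ± 0.18 (adjusted p = 0.396) and Pgd 0.03 ± 0.15 (adjusted p = 0.900). Both had their lowest ratio in mouse 1, at -0.98 for G6pdx and -0.64 for Pgd.

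Of 17 tested genes that act on the carboxylases or handle acetyl- and malonyl-CoA, 2 rose, 3 fell and 12 did not pass (median -0.07). Hlcs, the ligase that loads biotin onto carboxylases, fell by 0.55 on the log2 scale (SE 0.06, limma adjusted p = 0.00104). The mitochondrial acetyl-CoA synthetase Acss1 fell as well (-0.38 ± 0.07, adjusted p = 0.00994), though with processed signals it was -0.63 and did not pass (adjusted p = 0.0506, within 0.00236 to 0.660 over 16 alternatives). Its relative Acss3 was lower too (adjusted p = 0.000182), but its probe cleared background for Fra-1hep on 1 of 5 arrays. The size of that fall depends on the background correction and is not fixed by these data, at -1.17 as fitted, -2.35 with offset 0 and -4.18 with processed signals. Stk11, the kinase that activates AMPK, rose by 0.32 ± 0.05 (adjusted p = 0.00703). Mid1ip1, the Spot 14-related protein that helps acetyl-CoA carboxylase polymerise, had 0.38 ± 0.23 (adjusted p = 0.258), with mice from -0.22 to 1.17.

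Mitochondrial fatty acid synthesis, a separate pathway that feeds lipoic acid formation, had 0 genes that rose, 2 that fell and 5 that did not pass of 7 tested (median -0.12). The genes that fell were Ndufab1, the mitochondrial acyl carrier protein (-0.61 ± 0.08, limma adjusted p = 0.00235), and Lias, lipoic acid synthase (-0.25 ± 0.05, adjusted p = 0.0165). The call of Lias was lost with processed signals (adjusted p = 0.0698) and with a control pool spread added (0.0589), within 0.00953 to 1.00 over 16 alternatives. Acsf3, a malonyl-CoA synthetase, had -0.26 ± 0.08 (adjusted p = 0.0506, and under 0.05 in 6 of 16 alternatives) and Mecr, an enoyl reductase, 0.21 ± 0.07 (adjusted p = 0.0655). Of 20 insulin signalling genes, 1 rose, 3 fell and 16 did not pass (median -0.06). Pik3r1, a regulatory subunit of phosphoinositide 3-kinase, fell by 0.52 on the log2 scale (SE 0.08, adjusted p = 0.00562) and Rps6kb1, the S6 kinase, by 0.30 (SE 0.06, adjusted p = 0.0155). With the mean of all its probes Rps6kb1 had -0.12 and did not pass (adjusted p = 0.130, within 0.0131 to 1.00 over 16 alternatives). Its call was also lost with a control pool spread added. Akt2, the main Akt isoform of hepatic insulin action, rose by 0.20 ± 0.05 (adjusted p = 0.0291), a call lost under 6 of 16 alternatives, among them without mouse 3 (adjusted p = 0.0690), without mouse 4 (0.0653) and with the pool spread (0.0924), within 0.0125 to 1.00.

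Of 18 genes that finish and esterify fatty acids, 3 rose, 4 fell and 11 did not pass (median -0.07). Elovl3, an elongase of very long chains, fell by 1.74 on the log2 scale (SE 0.18, limma adjusted p = 0.000992), Lpin2, a phosphatidate phosphatase, by 1.07 (SE 0.17, adjusted p = 0.00592, and by 0.70 without the swapped pool) and Acsl1, an acyl-CoA synthetase, by 0.49 (SE 0.09, adjusted p = 0.00746). Mogat1, a monoacylglycerol acyltransferase, rose by 0.92 ± 0.13 (adjusted p = 0.00330). Scd1, the desaturase that acts on newly made saturated chains, had ratios of -0.79, 0.66, 1.52 and 0.44 in mice 1 to 4 and -0.81 for the swapped pool, and its change of -0.17 ± 0.35 did not pass (adjusted p = 0.752). Its sign turned without the swapped pool (0.46, adjusted p = 0.299) and without mouse 1 (0.033, adjusted p = 0.918). Elovl6, which extends palmitate, had 0.03 ± 0.11 (adjusted p = 0.879). In 9 of the 18 genes mouse 1 was lowest and mouse 3 highest, against 21 of all 111, and 8 of the 18 had an SD over mice above the 95th percentile of named genes.

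**Figure D5:**
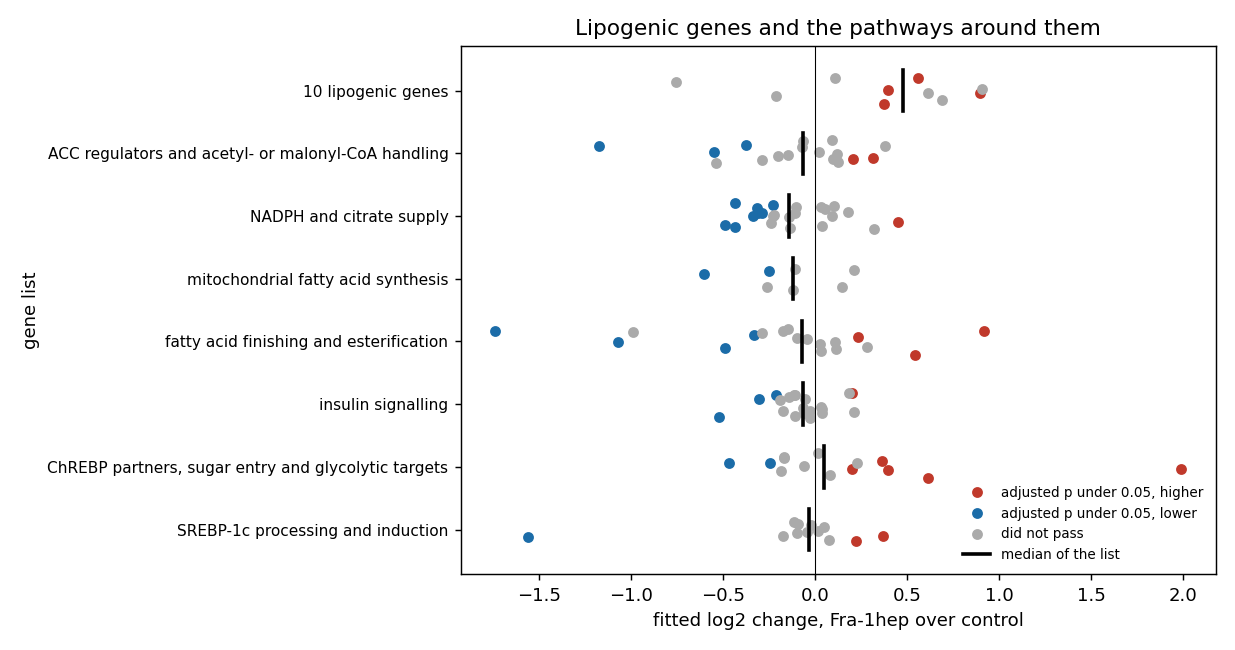
Fitted log2 change of Fra-1hep over control (horizontal axis) for each tested gene of the 10 lipogenic genes and 7 neighbouring lists (vertical axis), coloured by whether it passed adjusted p 0.05 higher or lower, with a bar at each list's median. The lipogenic median lies at 0.48 and the other 7 medians lie between -0.14 and 0.05.

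Some markers of other cell types changed in the same livers, where 11.2% of all features were called higher and 15.4% lower. The part of these cells in the results above was not tested. Neutrophil markers rose in 7 of 9 tested genes, with Mpo at 2.74 ± 0.22 (limma adjusted p = 0.000391) and S100a8 at 2.60 ± 0.29 (adjusted p = 0.00139). Among the 7, Mmp8 cleared background on 5 arrays for Fra-1hep and on 0 for control, so it was kept only through the channel where it was high. The summed linear level of the neutrophil markers was 19815 to 58258 in the Fra-1hep channel and 5388 to 6069 in the control channel. Stellate cell and fibroblast markers fell in 10 of 12, with the smallest p at Timp1 (-1.44) and Col1a2 (-1.62), with sums of 17096 to 22478 in Fra-1hep and 36417 to 46527 in control. Macrophage and monocyte markers fell in 5 of 10, with the smallest p at Gpnmb, whose probe cleared background for Fra-1hep on 1 of 5 arrays, and Trem2 (-0.86). The others, Marco (-0.78), Csf1r (-0.54), Timd4 (0.13), Clec4f (0.07) and Vsig4 (0.05), did not pass. The macrophage and monocyte sums overlapped, at 23224 to 55142 in Fra-1hep and 49878 to 62865 in control. Adipocytes also run this pathway, and of their 12 markers 4 fell. Aqp7 (-0.08), Slc2a4 (-0.17) and Lipe (0.06) did not pass, while Adipoq, Lep, Retn, Plin1 and Acvr1c were too dim to be kept. These markers therefore do not show whether adipocytes themselves changed. Cfd cleared background on 0 arrays for Fra-1hep and on 5 for control, and Adrb3 fell by 1.63 on the log2 scale. The adipocyte sum was 4662 to 6321 in Fra-1hep and 9806 to 10592 in control.

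Hepatocyte markers, the main source of liver RNA, rose in 2 of 12, fell in 1 and did not pass in 9, with Fah at 0.41 ± 0.06 (limma adjusted p = 0.00345) and Serpina1a at 0.29 ± 0.07 (adjusted p = 0.0237). The call of Serpina1a was lost with a control pool spread added and without mouse 4 (adjusted p = 0.0546, within 0.000218 to 1.00 over 16 alternatives). Its ratios were 0.93, 0.80, 0.62 and 0.89 in mice 1 to 4 but -0.22 for the swapped pool. Without that pool its change was 0.81. All 12 cleared background in each channel of every array. Of all features, 11.2% were called higher and 15.4% lower. The hepatocyte counts, and the cholangiocyte count given below, lie near these shares and are not read as changes in those cells. Endothelial markers rose in 1 of 10 (Flt1, 1.00) and fell in 5 (smallest p at Lyve1, -1.52), lymphocyte markers fell in 4 of 10 (smallest p at Lck and Cd3d, both -0.39), and cholangiocyte markers rose in 1 of 6, with Krt19 at 0.47 not passing (adjusted p = 0.126, and 0.0187 without mouse 2, within 0.0187 to 1.00 over 16 alternatives).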

How the data were processed

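Liver RNA was read on 5 Agilent 2-colour arrays. The scanner files hold spot intensities extracted with Feature Extraction 10.7.3.1, per the file headers (10.7 per the submitters' processing notes): median signals with local backgrounds, processed signals, Cy5 over Cy3 as log10, and spot flags, as the authors deposited them. The authors' deposited series table holds log2 values. Set against the scanner ratios, it ran as Fra-1hep over control on all 5 arrays (slope 1.00 on the mouse arrays and -1.00 on the swapped one) and was not centred, with column medians of 0.13, 0.08, 0.04, 0.13 and -0.04. No source used here names further steps behind it.

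Median signals were used, since the files hold no mean signals, which the planned design allowed as spot signals. Background was corrected by normexp (offset 50), and dyes were balanced by loess per array, giving control spots and outliers weight 0. Of 55681 probes, 26056 were named by accession through the RefSeq table of GRCm38.p6. Probes were required to clear background in at least 1 channel of 3 or more arrays, and each gene took its brightest such probe, for 21526 features in all. Where a gene has several probes, each value is given for the 10 genes.

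limma 3.58.1 in R 4.3.3 fitted a genotype term, turned in sign on the swapped array, beside a dye intercept. The swapped array weighs as much as the 4 mice together, and the spread comes from the 4 mice (3 residual and 4.02 prior degrees of freedom). The control pool is 1 control sample, so p-values leave out the spread among control mice. The number of arrays limits the precision, and named genes had a median standard error of 0.067. Benjamini-Hochberg adjustment ran over all features, at 0.05. Channel levels come from loess followed by Aquantile, and no probe's level is set against another's. The fit was tested on simulated data.

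The 10 genes and all lists were chosen with earlier results of these data known. Named genes are the 10 with every probe, for each pathway list up to 4 tested genes with the smallest p plus set names (Srebf2, Insig1, Insig2, Mlx, Pklr, Scd1, Elovl6, Mid1ip1, G6pdx, Pgd), for each marker list 2 genes with the smallest p, and the 5 nearest to Fasn. Some genes that this rule takes are not reported here. Scap, Mmp8, the markers too dim to be kept and the macrophage and adipocyte markers that did not pass were named after their values were seen. Where any of the 16 alternatives ended a call of a named gene, examples are given with it or in the closing section, and not all are listed. The exception is a test for changes beyond 1.2-fold, which ended the calls of further named genes and is given by counts.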

Additional observations from a re-analysis of the deposited data

Results flagged for a closer look

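Among the 4 mice, the log2 ratio of Mlxipl in mouse 4 stood apart from the others, with a gap to its nearest neighbour that was 0.89 of the whole range (above Dixon's 95% critical value for 4 samples). The ratios were 0.76, 0.73, 0.75 and 0.93 in mice 1 to 4, so the gap is large beside a range of only 0.20. Chance marks about 1 in 20 such groups, and 10 genes were examined.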

How the results depend on the processing

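The number of lipogenic genes that rose was 4 and became 2 with the scanner's processed signals, 2 with the deposited values and 1 in a test for changes beyond 1.2-fold. Leaving out 1 mouse or the swapped array in turn gave 3 to 7, with 7 without mouse 1, and 0 genes fell under any of the 16 alternatives. Of the pathway genes, 14 rose, and 9 with processed signals, 8 with a control pool spread added, 3 beyond 1.2-fold and 9 to 18 with 1 array left out. The pathway genes that fell numbered 23, and 14 with the pool spread, 6 beyond 1.2-fold and 20 to 35 with 1 array left out, the 35 without the swapped array. Over all features 5728 were called, 2853 with the pool spread and 1052 beyond 1.2-fold. Srebf1 did not pass with offset 0 (adjusted p = 0.0618), processed signals (0.0778) or deposited values (0.0775), nor did Slc25a1 with processed signals (0.0668) or deposited values (0.0665), all by limma. Acly (0.0469) and Acss2 (0.0262) passed without the dye term, and Acss2 (0.0439) with array weights. With 1 array left out, Acacb ran from -0.37 to 0.031, the 0.031 without mouse 1, against -0.21 with all arrays. The cause of these moves was not tested, except that leaving out an array changes the samples and the 1.2-fold test asks for a larger change. Probes of the 10 genes exceeded background in each channel of every array. Acss3, Gpnmb and Cfd did so for Fra-1hep on 1, 1 and 0 arrays, and Mmp8 for control on 0 arrays, which limits the size of their changes.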
